A study of Sus scrofa with 12 samples.

Results

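The genes described here are the glucose transporters SLC2A1 and SLC2A3 and the mitochondrial kinase PDK4 in the endometrium of sows on Day 14 after insemination. They were measured by all probe sets that the array's annotation gives to 1 of these 3 symbols alone, and were 3 of 6765 annotated genes and 4 of 23999 probe sets: 1 for SLC2A1, 1 for SLC2A3 and 2 for PDK4. The 3 genes were chosen with their difference between pregnant and non-pregnant sows already known, so that difference is described below without a test. Breed differences, the interaction of pregnancy and breed and the other genes of the pathway were tested. The lists of pathway genes and cell type markers were also chosen with earlier results of these data known. Their pregnancy calls are therefore not independent of that choice.

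Endometrium came from 12 sows, each on 1 Affymetrix array. The 4 groups were Yorkshire (YY) non-pregnant sows (numbers 1, 3 and 11), Yorkshire pregnant sows (2, 4 and 12), Landrace (LL) non-pregnant sows (5, 7 and 9) and Landrace pregnant sows (6, 8 and 10). The non-pregnant sows had been inseminated with inactivated semen, so both kinds of sow had been exposed to semen. The tissue held the epithelium, lamina propria and submucosa but not the muscle layer, and the uterine horns had been flushed before it was taken. The labels describe separate animals, and give neither their age nor how the tissue from the sections of a horn was combined. The epithelial genes EPCAM and CDH1 had mean levels of 11.53 and 10.81 over the 12 arrays, against array medians of 6.25 to 6.30. All levels are log2 values, so a difference of 1 is a doubling.

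Glucose crosses cell membranes through the SLC2A (GLUT) family of facilitative transporters, which carry it down its gradient. SLC2A1 encodes GLUT1, the widespread transporter of basal glucose uptake, and SLC2A3 encodes GLUT3, a high-affinity transporter best known from neurons, immune cells and trophoblast. PDK4 encodes a pyruvate dehydrogenase kinase, which phosphorylates and so inhibits the pyruvate dehydrogenase complex. That complex turns pyruvate from glycolysis into acetyl-CoA, so PDK4 limits how much glucose carbon enters mitochondrial oxidation, and it is known for its induction in fasting and by fatty acids. Before implantation the uterine lining passes glucose from maternal blood to the free-living conceptuses in the lumen.

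SLC2A1 was high in pregnant sows of both breeds. Its level was 7.77, 7.42 and 7.85 in Yorkshire non-pregnant sows 1, 3 and 11, and 9.63, 10.17 and 9.07 in Yorkshire pregnant sows 2, 4 and 12. In Landrace it was 8.81, 9.14 and 8.44 in non-pregnant sows 5, 7 and 9, and 11.23, 9.93 and 10.87 in pregnant sows 6, 8 and 10. Within each breed every pregnant sow was above every non-pregnant sow. Across the breeds a single pair overlapped, Landrace non-pregnant sow 7 at 9.14 and Yorkshire pregnant sow 12 at 9.07. Of all 23999 probe sets, 3% were higher in pregnant sows without overlap in both breeds.

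The mean of SLC2A1 was 10.15 ± 0.80 in the pregnant and 8.24 ± 0.67 in the non-pregnant animals (SD, n = 6 each), a difference of 1.91 on the log2 scale or 3.76-fold. It was 1.94 (3.85-fold) in Yorkshire and 1.88 (3.69-fold) in Landrace. The 4 groups stood in the order Yorkshire non-pregnant (7.68 ± 0.23), Landrace non-pregnant (8.79 ± 0.35), Yorkshire pregnant (9.62 ± 0.55) and Landrace pregnant (10.68 ± 0.67, SD, n = 3 each). The non-pregnant groups of the breeds did not overlap. Landrace non-pregnant and Yorkshire pregnant sows overlapped, and so did the pregnant groups. On its array SLC2A1 stood above 69.6% of probe sets in the lowest sow and above 98.7% in the highest, so no sow was near the lower end of the scale.

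**Figure D1:**
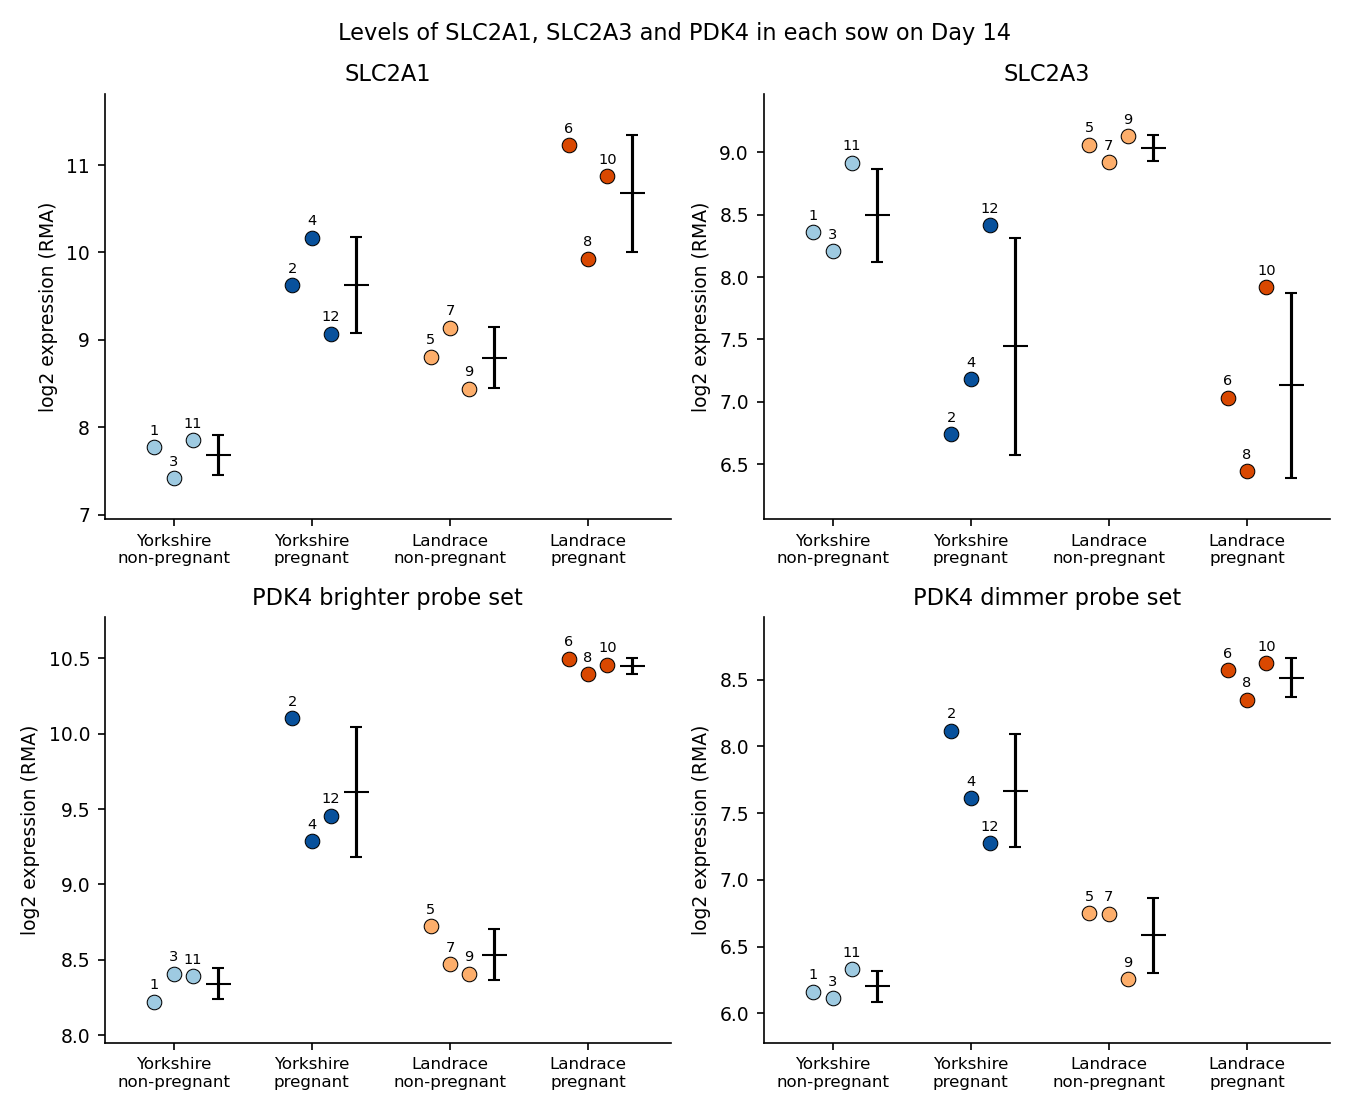
Level of each probe set (log2 expression, RMA) in the 12 sows by group, with sow numbers above the points, and the mean and SD of each group (n = 3) beside them. SLC2A1 and both PDK4 probe sets are higher in the pregnant sows of each breed, and SLC2A3 is lower except in pregnant sow 12, at 8.41.

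SLC2A3 went the other way. Its level was 8.36, 8.21 and 8.92 in Yorkshire non-pregnant sows 1, 3 and 11, and 6.74, 7.18 and 8.41 in Yorkshire pregnant sows 2, 4 and 12. In Landrace it was 9.06, 8.92 and 9.13 in non-pregnant sows 5, 7 and 9, and 7.03, 6.44 and 7.92 in pregnant sows 6, 8 and 10. Every Landrace pregnant sow was below every Landrace non-pregnant sow, which was so for 9.5% of all probe sets. In Yorkshire the groups overlapped through pregnant sow 12, which was above non-pregnant sows 1 and 3.

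The mean of SLC2A3 was 7.29 ± 0.74 in the pregnant and 8.77 ± 0.38 in the non-pregnant animals (SD, n = 6 each), a difference of -1.48, or 2.79-fold lower in pregnancy. It was -1.05 in Yorkshire and -1.91 in Landrace. The order of the groups was Landrace pregnant (7.13 ± 0.74), Yorkshire pregnant (7.44 ± 0.87), Yorkshire non-pregnant (8.49 ± 0.37) and Landrace non-pregnant (9.04 ± 0.10, SD, n = 3 each). Neighbours in this order overlapped, except the 2 non-pregnant groups, whose nearest sows were both at 8.92. The 3 Landrace non-pregnant sows were close together, whereas the pregnant sows of each breed were spread widely. SLC2A3 stood above 52.4% to 91.2% of the probe sets of an array.

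PDK4 was high in all pregnant sows, and its probe sets showed this alike. On the brighter probe set the levels were 8.22, 8.41 and 8.39 in Yorkshire non-pregnant sows 1, 3 and 11, and 10.10, 9.29 and 9.46 in Yorkshire pregnant sows 2, 4 and 12. The Landrace levels were 8.72, 8.47 and 8.41 in non-pregnant sows 5, 7 and 9, and 10.50, 10.40 and 10.46 in pregnant sows 6, 8 and 10. Every pregnant sow of either breed was above every non-pregnant sow of either breed, on both PDK4 probe sets. The share of all probe sets with this pattern was 1.3%, and it is given only as background since the genes were chosen on this contrast.

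On the brighter PDK4 probe set the mean was 10.03 ± 0.53 in the pregnant and 8.44 ± 0.16 in the non-pregnant animals (SD, n = 6 each), a difference of 1.60 or 3.02-fold. The difference was 1.27 (2.42-fold) in Yorkshire and 1.92 (3.78-fold) in Landrace. On the dimmer probe set the means were 8.09 ± 0.54 and 6.39 ± 0.28, with a difference of 1.70 over both breeds, 1.47 in Yorkshire and 1.93 in Landrace. The probe sets followed one another over the 12 arrays (Pearson r = 0.984) and also in the deviations of the sows from their 4 group means (r = 0.737). These r are descriptions over arrays that both probe sets share.

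The order of the PDK4 groups was the same on both probe sets: Yorkshire non-pregnant, Landrace non-pregnant, Yorkshire pregnant and Landrace pregnant. On the brighter probe set the non-pregnant groups overlapped (8.34 ± 0.10 and 8.53 ± 0.17, SD, n = 3 each). The pregnant groups did not overlap (9.61 ± 0.43 and 10.45 ± 0.05). The 3 Landrace pregnant sows lay closest together there.

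Pregnant sow 12 was the pregnant sow nearest to the non-pregnant level for SLC2A1, for SLC2A3 and for the dimmer PDK4 probe set. Without it the pregnancy difference was 2.03 for SLC2A1, -1.74 for SLC2A3 and 1.67 and 1.81 for the PDK4 probe sets. Non-pregnant sow 7 carried high levels of leukocyte genes, with a mean of 8.38 over 6 macrophage and neutrophil markers, where the other 5 non-pregnant animals had 6.09 to 6.25. Its SLC2A3 and PDK4 levels lay within the range of those 5, and its SLC2A1 level, 9.14, was above theirs. Without sow 7 the pregnancy difference was 1.99 for SLC2A1, -1.46 for SLC2A3 and 1.55 and 1.71 for PDK4.

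**Figure D2:**
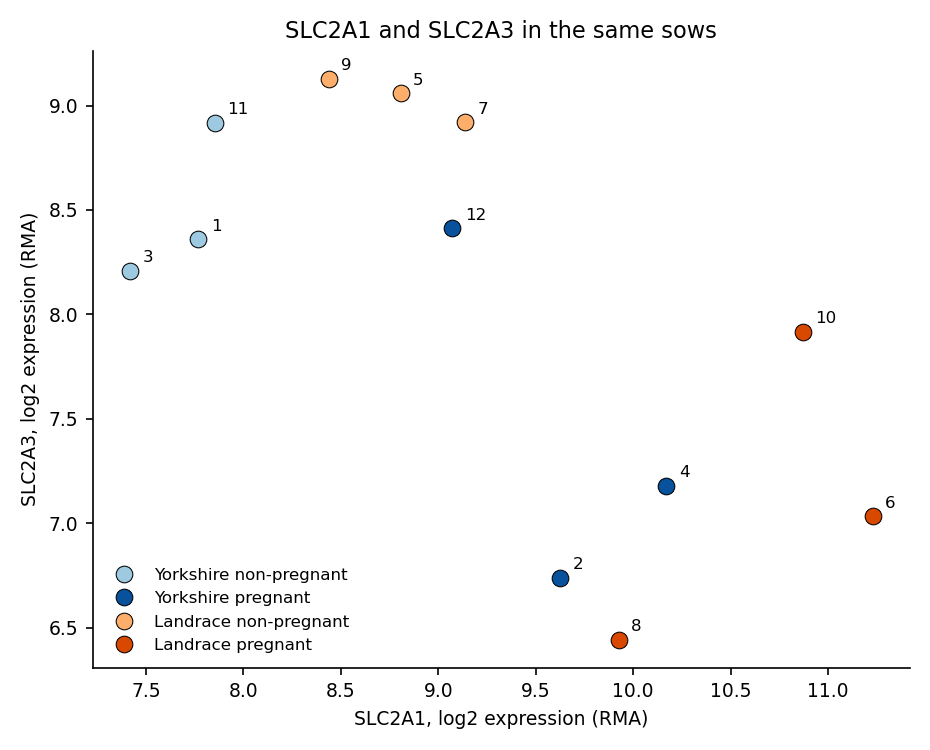
SLC2A1 level (x axis) against SLC2A3 level (y axis) in the same sow, both log2 expression (RMA), with 1 point for each of the 12 sows. The non-pregnant sows lie at the upper left, with SLC2A1 up to 9.14 and SLC2A3 from 8.21, and 5 of the 6 pregnant sows lie at the lower right, while pregnant sow 12 lies beside the non-pregnant sows.

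Within a pregnancy status, sows with more SLC2A1 did not have detectably less SLC2A3. In the 6 pregnant sows Pearson r was -0.190 (exact permutation p = 0.715, two-sided) and Spearman rho -0.0857 (exact permutation p = 0.919). In the 6 non-pregnant sows r was 0.757 (exact permutation p = 0.104) and rho 0.771 (exact permutation p = 0.103). Without the 2 sows farthest from the SLC2A1 median, r became 0.908 in pregnant and 0.736 in non-pregnant sows, over 4 sows each. With the breed means removed it was -0.033 and 0.199.

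SLC2A1 and PDK4 (the brighter probe set) gave r = 0.610 and rho = 0.657 in pregnant sows (exact permutation p = 0.196 and 0.175), and r = 0.606 and rho = 0.600 in non-pregnant sows (exact permutation p = 0.190 and 0.242). With breed means removed these r fell to -0.030 and 0.043. Without the 2 sows farthest from the SLC2A1 median, the pregnant sows gave r = 0.203 and the non-pregnant sows 0.888. The PDK4 probe sets differed here. Over deviations from the 4 group means, SLC2A1 gave r = -0.016 with the brighter and 0.555 with the dimmer PDK4 probe set. The dimmer probe set was not tested for correlation. SLC2A3 and PDK4 gave r = -0.385 and rho = -0.257 in pregnant sows (exact permutation p = 0.442 and 0.658), and r = 0.557 and rho = 0.371 in non-pregnant sows (exact permutation p = 0.311 and 0.497). Without the 2 sows farthest from the SLC2A3 median those r were -0.587 and 0.258, and with breed means removed -0.374 and 0.121. None of the 6 relations passed: the Benjamini-Hochberg adjusted p over the 6 exact permutation tests was 0.392 to 0.715 for r and 0.483 to 0.919 for rho. With 6 sows a relation has to be nearly perfect to pass, so weaker ones were not detectable.

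Breed was tested next, a comparison on which the genes had not been chosen. Landrace sows had more SLC2A1 than Yorkshire sows, by 1.08 ± 0.23 on the log2 scale (SE, limma, adjusted p = 0.0194), or 2.12-fold, and all 6 Landrace sows were above the Yorkshire mean of the same pregnancy status. The difference was 1.11 among non-pregnant and 1.05 among pregnant sows. The call was kept whichever sow was omitted, with adjusted p of 0.00615 to 0.0482 over 12 fits. Over all probe sets, 5.15% differed between the breeds and 2.22% were higher in Landrace. Among pregnant sows, Landrace sows 6 and 10 were at 11.23 and 10.87. Landrace sow 8, at 9.93, lay within the Yorkshire range of 9.07 to 10.17. Sows 6 and 10 also had high IFNG, a conceptus gene described below. The part of conceptus RNA in the breed difference was not tested.

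PDK4 stood at the threshold for breed. The dimmer probe set was higher in Landrace by 0.61 ± 0.15 (SE, limma, adjusted p = 0.0366) and the brighter by 0.51 ± 0.15 (adjusted p = 0.0742), each with 6 of 6 Landrace sows above the Yorkshire mean of their status. Omitting a single sow ended the call of the dimmer probe set for 9 of the 12 sows (numbers 1, 3, 4, 5, 6, 7, 8, 10 and 12), where adjusted p reached 0.0859. The mean of both probe sets differed by 0.56 (limma, adjusted p = 0.0460). On the brighter probe set the breed difference was 0.19 in non-pregnant and 0.84 in pregnant sows.

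SLC2A3 differed between the breeds by 0.11 ± 0.31 (SE, limma, adjusted p = 0.885), with a 95% confidence interval of -0.56 to 0.79, and 4 of 6 Landrace sows lay above the Yorkshire mean of their status. The difference was 0.54 in non-pregnant and -0.31 in pregnant sows. Thus 2 of the 4 probe sets were called for breed, both higher in Landrace, against 5.15% of all probe sets called and 2.22% higher in Landrace. Of these 2 calls, that of the dimmer PDK4 probe set was lost for 9 of the 12 omissions.

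A measure of RNA quality moved with breed. The difference between the 3' and 5' control probe sets of GAPDH, which grows as RNA is degraded or labelled incompletely, was 0.379 to 0.538 in Landrace and 0.545 to 0.773 in Yorkshire sows, with no overlap. Its part in the breed differences was not tested. Between pregnant and non-pregnant sows it overlapped (0.597 ± 0.141 and 0.538 ± 0.150, SD, n = 6 each).

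Whether the pregnancy difference itself differed between breeds was tested as an interaction. Landrace minus Yorkshire, the difference of differences was -0.06 for SLC2A1 (95% confidence interval -1.12 to 1.00), -0.85 for SLC2A3 (-2.17 to 0.46), 0.64 for the brighter PDK4 probe set (0.09 to 1.20) and 0.47 for the dimmer (-0.16 to 1.09). The unadjusted p of the brighter PDK4 probe set was 0.0271 (limma), and the adjusted p of all 4 was 0.9996. No probe set of the array passed for the interaction in limma (0%), and 963 of 23999, or 4.01%, had an unadjusted p under 0.05. With 3 sows a group these intervals were wide: that of SLC2A1 held a pregnancy difference larger by 1.00 in Landrace, and that of SLC2A3 reached -2.17, a fall that much deeper in Landrace than in Yorkshire.

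The other transporters of glucose did not pass the test between pregnant and non-pregnant sows. Of 11 further facilitative transporters 5 were measured (SLC2A2, SLC2A4, SLC2A5, SLC2A8 and SLC2A12), and 0 were called by limma, with 1 at an unadjusted p under 0.05, which 31.3% of all genes reached. Their median difference was 0.05, against -0.03 over all 6765 genes, of which 4.58% rose and 7.48% fell. SLC2A2 and SLC2A5 were dim, with mean levels of 4.54 and 4.50 against array lower quartiles of 4.58 to 4.71. SLC2A8, an intracellular transporter, was at 8.22 ± 1.06 in the pregnant and 9.14 ± 0.67 in the non-pregnant animals (SD, n = 6 each, difference -0.91, adjusted p = 0.0799). Its difference was -0.44 in Yorkshire and -1.39 in Landrace, and without non-pregnant sow 7 it passed (adjusted p = 0.0413). The insulin-regulated SLC2A4 differed by 0.17 (adjusted p = 0.219), with a mean level of 6.29 in pregnant and 6.12 in non-pregnant sows. Of 7 sodium-coupled transporters 3 were measured and 0 were called or reached an unadjusted p under 0.05 in limma. SLC5A4 differed by 0.54 (adjusted p = 0.216) and SLC5A10 by 0.11 (adjusted p = 0.500).

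Around the pyruvate dehydrogenase complex, on which PDK4 acts, a phosphatase that opposes it, PDP2, fell. No other phosphatase of the complex was among the measured genes of the list. PDP2, which removes the inhibitory phosphates, was at 6.84 ± 0.14 in the pregnant and 7.25 ± 0.15 in the non-pregnant animals (SD, n = 6 each). Every pregnant sow lay below every non-pregnant sow, at 6.72 to 7.05 against 7.09 to 7.46, as for 3% of all genes, and the difference was -0.41 ± 0.09 (SE, limma, adjusted p = 0.0177). PDP2 was the only call among the 8 measured of 13 genes for the complex, its kinases, its phosphatases and the mitochondrial pyruvate carrier. The median of the 8 was -0.18, and 7 of them had a negative difference. In limma 5 of the 8 had an unadjusted p under 0.05, which 31.3% of all genes reached. The kinase PDK3 alone had a positive difference, 0.29 (limma, adjusted p = 0.0685). A second member fell when sow 8 was omitted, and 1 rose when sow 7 was.

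Glycolysis as a list showed a single call. Of 29 genes of glucose phosphorylation and glycolysis 19 were measured, 0 rose and GAPDH fell, with 14 of 19 differences below 0 and a median of -0.17. GAPDH, a glycolytic dehydrogenase often used as a reference gene, was at 12.13 ± 0.12 in the pregnant and 12.54 ± 0.14 in the non-pregnant animals (SD, n = 6 each, difference -0.41, adjusted p = 0.0123, limma). Its groups did not overlap, and its 4 other probe sets had the same sign. The list held 3 falls when sow 7 or 12 was omitted, and 1 rise when sow 8 was.

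Among genes of lactate transport 3 of 7 were measured, and EMB rose by 3.51 ± 0.49 (SE, limma, adjusted p = 0.00464). EMB encodes embigin, a membrane partner of monocarboxylate transporters. Its level was 6.30 to 9.86 in the pregnant and 4.12 to 5.56 in the non-pregnant animals, and sow 12 was again the lowest pregnant sow. All pregnant sows were above all non-pregnant sows for 1.54% of genes. BSG and SLC16A3 were the other measured members and were not called.

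The polyol pathway, which makes fructose from glucose, had its second enzyme lower in pregnancy. SORD, sorbitol dehydrogenase, was at 8.23 ± 0.59 in the pregnant and 9.55 ± 0.37 in the non-pregnant animals (SD, n = 6 each), with no overlap and a difference of -1.31 ± 0.25 (SE, limma, adjusted p = 0.0119). It was the only call among 9 measured of 13 genes of glycogen and polyol metabolism, whose median was -0.01.

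**Figure D3:**
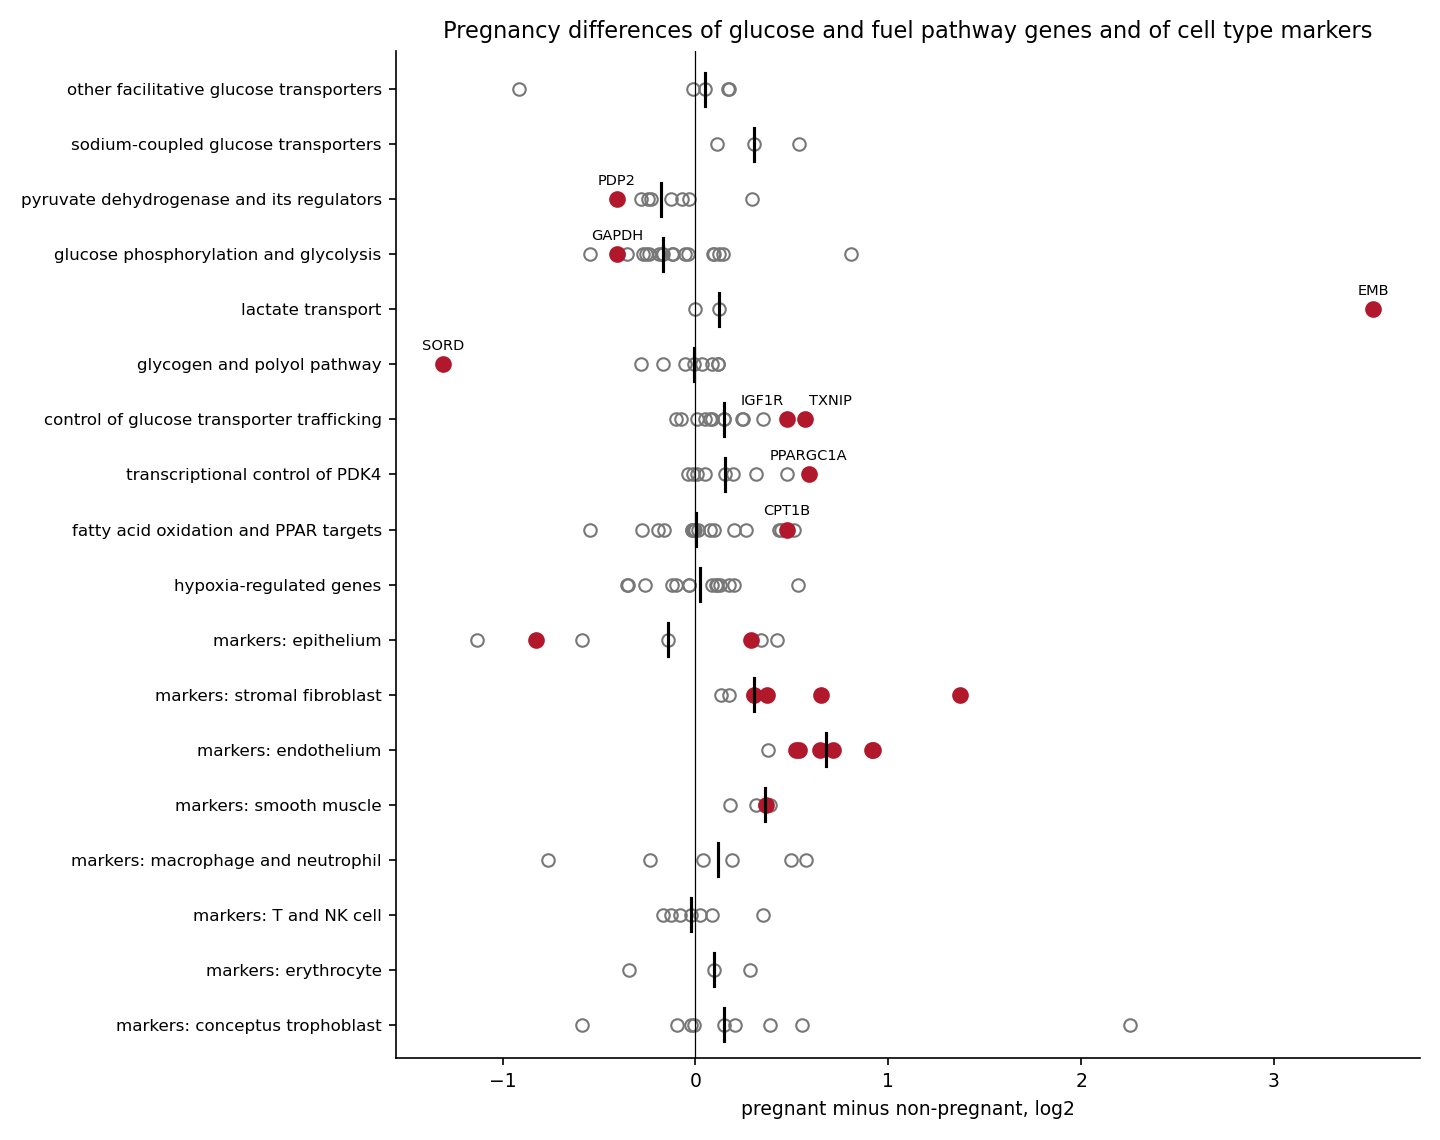
Difference between pregnant and non-pregnant sows (log2, x axis) for each measured gene of 10 pathway lists and 8 lists of cell type markers, 1 point per gene. Filled points passed at adjusted p under 0.05, open points did not, and the vertical bar is the median of a list. EMB at 3.51 and SORD at -1.31 are the outermost called pathway genes, and the endothelial markers all lie to the right of 0.

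Of 19 genes that act on glucose transporter traffic or insulin signalling 13 were measured and 2 rose. TXNIP, an arrestin-like protein that draws GLUT1 from the cell surface and is itself induced by glucose, was at 12.52 ± 0.15 in the pregnant and 11.95 ± 0.20 in the non-pregnant animals (SD, n = 6 each), with no overlap (difference 0.57, limma, adjusted p = 0.00734). The growth factor receptor IGF1R rose by 0.47 ± 0.12 (SE, limma, adjusted p = 0.0303). Omitting a single sow ended the IGF1R call for 7 of the 12 (sows 2, 3, 4, 5, 6, 10 and 11), where adjusted p reached 0.0746 and the list held 1 rise. It also ended with the mean of its 2 probe sets (difference 0.30, adjusted p = 0.0626) and without a breed term (adjusted p = 0.0803). The median of the list was 0.15.

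The factors known to switch on PDK4 were mostly not called. Of 14 such genes 9 were measured, and the coactivator PPARGC1A rose by 0.59 ± 0.16 (SE, limma, adjusted p = 0.0476), by 0.24 in Yorkshire and 0.93 in Landrace. Its pregnant sows were at 6.36 to 7.22 and its non-pregnant sows at 5.22 to 6.79. Omitting a single sow ended this call for 9 of the 12 (all but sows 4, 11 and 12), where adjusted p reached 0.110. Cyclic loess and median centring of the arrays ended it also (adjusted p = 0.0503 and 0.0525). Without a breed term its adjusted p was 0.198. The list's median was 0.15.

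Of 21 genes of fatty acid oxidation and PPAR targets 18 were measured, with a median of 0.0041, and 1 rose. CPT1B, an isoform of the enzyme that admits fatty acids to mitochondria, was at 6.21 ± 0.16 in the pregnant and 5.74 ± 0.15 in the non-pregnant animals (SD, n = 6 each), with no overlap (difference 0.47, limma, adjusted p = 0.00758). A second member rose when sow 4, 7 or 11 was omitted. Of 19 hypoxia-regulated genes, a class that includes SLC2A1 and SLC2A3 by common knowledge, 14 others were measured. In limma 0 were called and 4 had an unadjusted p under 0.05, with 7 differences above and 7 below 0. Omitting sow 7 gave 1 rise there. The mitophagy receptor BNIP3L differed by -0.35 (adjusted p = 0.0966) and passed without pregnant sow 8 (adjusted p = 0.0178). P4HA2, a collagen prolyl hydroxylase, differed by -0.35 (adjusted p = 0.125).

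Over the 10 pathway lists together 101 of 153 genes were measured, of which 5 rose (4.95%) and 3 fell (2.97%), against 4.58% and 7.48% of all genes. The median difference was 0.01. So the pathway's share of rises was near that of all genes, and its share of falls was below it. Only 3 rose when sow 2, 3, 6 or 10 was omitted, and 6 genes fell when sow 7 was omitted and 5 when sow 8 or 12 was. The number of calls over all 23999 probe sets also changed with the sow omitted. It was 2205, 2275 and 2626 without sow 7, 8 or 12, and 951 to 1562 without any other sow. Single calls gained without sow 7, 8 or 12, above and below, stand beside these numbers.

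Between the breeds 0 of the 101 pathway genes were higher in Landrace and 8 were lower (7.92%), against 2.03% and 3.24% of all genes. The 8 were named after their values were seen: EGLN1, an oxygen-sensing prolyl hydroxylase (-1.36, limma, adjusted p = 9.03e-06), SLC2A8 (-1.26), P4HA2 (-0.79), PPARGC1A (-0.68), PRKAA2 (-0.43), GYS1 (-0.40), RXRB (-0.38) and PFKL (-0.37). The calls of EGLN1, P4HA2, PRKAA2, GYS1 and PFKL were kept when any 1 sow was left out. Omitting a single sow ended the call of SLC2A8 for 7 sows (1, 2, 4, 6, 7, 10 and 12), of PPARGC1A for 8 (all but 4, 8, 10 and 12) and of RXRB for 4 (1, 6, 11 and 12). Adjusted p then reached 0.0728, 0.0747 and 0.0568. The number of lower genes was 5 when sow 1 or 6 was omitted, and with sow 8 omitted 1 gene was higher and 9 were lower.

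Markers of other cells of the tissue moved with pregnancy, on lists also chosen with earlier results of these data known. In tissue samples more cells of a type and more RNA per cell cannot be told apart. Of 8 measured endothelial markers 6 rose, with a median of 0.68. Their mean level was 7.12 to 7.71 in the pregnant and 6.39 to 6.95 in the non-pregnant animals, without overlap, and the junction protein CDH5 and the clotting protein VWF had differences of 0.92 and 0.91 (limma, adjusted p = 0.0146 and 0.0127). The receptor TIE1 and the transcription factor ERG rose by 0.54 and 0.71. Only 4 were called when sow 1, 2, 3, 4, 6, 9 or 11 was omitted. Of the 2 other probe sets of VWF only 1 had the same sign, as for TEK, which was also called. Of 7 stromal markers 4 rose, with a median of 0.31 and THY1 as the largest rise at 1.37, VIM at 0.65, PDGFRB at 0.37 and DCN at 0.31. Their mean level was 10.10 to 10.83 in the pregnant and 9.74 to 10.23 in the non-pregnant animals. Only 2 were called when any of sows 1 to 6 was omitted, and the other DCN probe set had the opposite sign.

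Of 7 epithelial markers KRT8 fell by 0.83 and MUC1 rose by 0.29, and the median was -0.14. In limma 5 of the 7 had an unadjusted p under 0.05, which 31.3% of all genes reached, with 3 differences above and 4 below 0. The largest was that of the keratin KRT19, -1.13 (limma, adjusted p = 0.128). KRT18 differed by -0.59 and CDH1 by 0.34 (limma, adjusted p = 0.113 and 0.0876). The mean level of the list was 9.64 to 10.46 in the pregnant and 10.09 to 10.40 in the non-pregnant animals. The other probe set of MUC1 had the opposite sign, and the MUC1 call ended under median centring (adjusted p = 0.0564) and an intensity trend (adjusted p = 0.0585). Omitting a single sow ended the KRT8 call for 9 of the 12 (all but 7, 10 and 12) and the MUC1 call for 8 (all but 1, 4, 11 and 12). Of 5 smooth muscle markers MYL9 rose by 0.37, a call that 9 of the 12 omissions ended (all but 1, 4 and 10). That list had a mean of 8.32 to 9.28 in the pregnant and 8.12 to 8.76 in the non-pregnant animals. The part of cell composition in the differences of SLC2A1, SLC2A3 and PDK4 was not tested.

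Leukocyte, erythrocyte and trophoblast markers gave no call in limma. Of 6 macrophage and neutrophil, 7 T and NK cell, 3 erythrocyte and 9 conceptus trophoblast markers, 0, 0, 1 and 1 had an unadjusted p under 0.05. CD163 and CD14 differed by -0.77 and 0.50 (adjusted p = 0.485 each), CD2 and CD3D by 0.35 and -0.12, and HBB and ALAS2 by -0.34 and 0.28. With sow 7 omitted CD14 passed (adjusted p = 0.0112), and with sow 7 or sow 12 omitted HBB and GATA2 passed (adjusted p = 0.0452 and 0.0204, and 0.0359 and 0.0283). The macrophage and neutrophil mean was 6.36 to 6.85 in the pregnant sows, and non-pregnant sow 7 had 8.38. The remaining 5 non-pregnant animals had 6.09 to 6.25, all below the pregnant sows. The T and NK cell mean was 5.39 to 5.97 in the pregnant and 5.22 to 6.75 in the non-pregnant animals, and the erythrocyte mean 5.83 to 6.61 and 5.92 to 6.25.

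IFNG, which the pig conceptus secretes at this stage, was at 8.21 in pregnant sow 6 and 12.65 in pregnant sow 10, and at 3.61 to 4.41 in the other 10 sows (difference 2.25, limma, adjusted p = 0.280). The trophoblast list had a mean of 5.69 and 6.86 in sows 6 and 10, 5.13 to 5.21 in the other pregnant sows and at most 5.40 in the non-pregnant sows. GATA2 differed by -0.59 (adjusted p = 0.0632). Sows 6 and 10 had the highest SLC2A1 levels of all, 11.23 and 10.87. In pregnant sows 2, 4, 8 and 12, where IFNG was at 4.20, 4.11, 4.26 and 4.00, SLC2A1 was at 9.63, 10.17, 9.93 and 9.07. The first 3 of these were above every non-pregnant sow, and sow 12 was below non-pregnant sow 7, at 9.14. The part of conceptus RNA in the SLC2A1 difference was not tested. Landrace pregnant sow 8 had the lowest SLC2A3 level, 6.44, and a PDK4 level of 10.40, close to the 10.50 and 10.46 of sows 6 and 10.

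The genes with the profile most like each member over the 12 arrays were sought among 6762 other genes. The arrays differ by pregnancy and breed, so a high r mostly reflects shared group differences, and r over the deviations from the 4 group means is given beside it. For SLC2A1 the highest were ASS1 (r = 0.980, deviations 0.938), which makes argininosuccinate in arginine synthesis, TINAGL1 (0.975, deviations 0.911), a matrix protein, the inositol phosphatase INPP1 (0.967, deviations 0.942), the transcriptional repressor HBP1 (0.961, deviations 0.824) and the tyrosine kinase FYN (0.957, deviations 0.878). The lowest were CRELD1 (-0.970), NAA20 (-0.962) and ZFAND2A (-0.962), with -0.937, -0.791 and -0.949 over deviations. Their r over deviations was strong too. The deviations are part of the r for which the genes were picked, so this is no separate support.

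For SLC2A3 the nearest profiles were those of the kinase STK26 (r = 0.933, deviations 0.851), CRIM1 (0.928, deviations 0.809), RSL1D1 (0.919, deviations 0.844), OTUB1 (0.916, deviations 0.772) and MESDC2 (0.916, deviations 0.948). The most opposite were LOC396700 (-0.921), OSBPL9 (-0.902) and SNRK (-0.899), with -0.737, -0.866 and -0.642 over deviations. For PDK4 they were WDR45 (0.947, deviations 0.100), COPRS (0.946, deviations 0.238), the autophagy protein GABARAPL1 (0.945, deviations 0.392), the secreted peroxidase GPX3 (0.942, deviations 0.705) and PCMTD1 (0.941, deviations 0.493). The most opposite were BCAT1 (-0.920), MRLC2 (-0.915) and MIF (-0.915), with -0.365, -0.135 and -0.172 over deviations. The PDK4 neighbours shared its group differences more than its variation between sows of a group. All these genes were picked for their r, which therefore overstates the likeness.

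**Figure D4:**
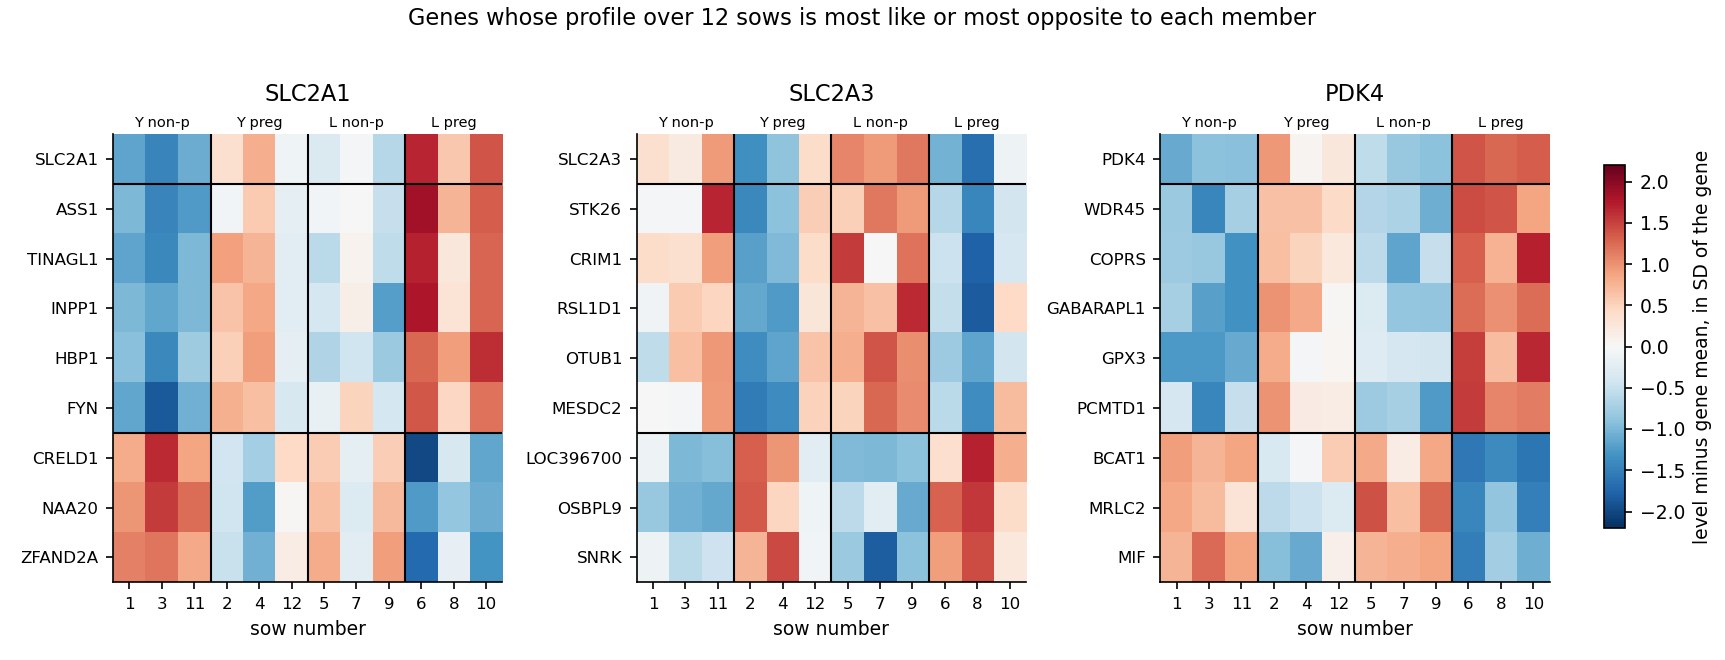
Profiles over the 12 sows (columns, by sow number, Y for Yorkshire and L for Landrace, preg for pregnant and non-p for non-pregnant) of each member, the 5 genes most like it and the 3 most opposite to it. Colour is the log2 level minus the gene's mean, in SD of the gene. SLC2A1 and its like genes are highest in Landrace pregnant sows 6 and 10, and SLC2A3 and its like genes are low in pregnant sows 2, 4 and 8.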

How the data were processed

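The authors deposited log2 expression for each probe set, made with RMA per the submitters' processing notes (RMA, affy and limma, versions not given in the sources used here). RMA makes the arrays' distributions alike, so differences are relative to the other genes of an array, and it understates folds of dim genes. The number of arrays limits the precision. Of 24123 probe sets 124 controls were left out, and 10069 of the rest had 1 symbol. Of the 3 genes, 2 had a gene identifier in the RefSeq table of Sscrofa11.1 and all 3 a symbol. The build behind the array's design is not given in the sources used here, and coordinates are left out.

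The probe set with the highest mean stood for a gene. Linear models (lmFit, then eBayes) were fitted in limma 3.58.1 under R 4.3.3. P-values were two-sided and adjusted by Benjamini-Hochberg over 23999 probe sets, with a threshold of 0.05. Pregnancy and breed were additive terms over 12 arrays, and the interaction came from a fit of 4 groups. The procedure was checked on simulated data. Alternatives were other normalizations, filters, priors, weights and leaving out each sow. Named genes were up to 4 called genes of a list (2 where none was called) and the 5 most like and 3 most opposite to each member, with the 3 most like in deviations. Members and lists were chosen with earlier results of these data known.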

Additional observations from a re-analysis of the deposited data

Results flagged for a closer look

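For the 4 member probe sets and the 33 named pathway and marker genes, the 6 pregnant and the 6 non-pregnant sows were each examined for a sow far from the other 5, in 74 comparisons, of which chance alone marks about 1 in 20. No member probe set had such a sow. Non-pregnant sow 7 stood apart for CD163 at 11.1 (7.12 to 7.56 in the other non-pregnant sows), CD14 at 7.62 (4.92 to 5.40), CD2 at 8.08 (5.45 to 5.95) and CD3D at 7.58 (6.40 to 6.79), all leukocyte genes. It also stood apart for the glucose transporter SLC2A8, at 7.84 against 9.04 to 9.68. Pregnant sow 2 stood apart for PPARGC1A at 7.22, against 6.36 to 6.60 in the other pregnant sows.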

How the results depend on the processing

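The pregnancy differences of the 4 member probe sets moved by less than the spread within groups under cyclic loess, median centring, the mean of a gene's probe sets and the omission of any 1 sow, with ranges of 1.79 to 2.08 for SLC2A1, -1.74 to -1.28 for SLC2A3, and 1.52 to 1.70 and 1.60 to 1.81 for PDK4. The breed difference of SLC2A1 kept an adjusted p under 0.05 in limma in every alternative fit. In the main fit its adjusted p was 0.0194, so it would not pass at 0.01. The mean of both PDK4 probe sets passed for breed (0.56, limma, adjusted p = 0.0460). The brighter PDK4 probe set alone passed for breed only in the fit of 4 groups (0.51, limma, adjusted p = 0.0416). Leaving out 1 sow gave breed differences of 0.50 to 0.71 for the dimmer PDK4 probe set and -0.013 to 0.38 for SLC2A3, and interactions of -0.34 to 0.31 for SLC2A1. Pathway rises numbered 3 to 7 and falls 3 to 6 without 1 sow, 11 and 8 with array weights, 3 rises without a breed term, and 3 and 0 at adjusted p under 0.01. The correlation of SLC2A1 with SLC2A3 in pregnant sows turned to 0.908 without the 2 farthest sows, that with PDK4 turned to -0.030 with breed means removed, and in non-pregnant sows the latter was 0.888 (exact permutation p = 0.0417) without the 2 farthest. Of 623 recomputed values of the 33 named genes, 539 kept direction and side of the threshold, 70 lost and 13 gained a call, and CD3D, at -0.12, ranged from -0.19 to 0.044 without 1 sow, turning without sow 7. The cause of these changes was not tested. No paired analysis was possible because no replicate number was shared between the groups. The number of arrays limits what 3 sows a group can show.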

Other observations

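Within the groups, the genes that followed each member most closely from sow to sow were partly others than those most like it over all arrays. Over deviations from the 4 group means on 12 arrays, the highest r with SLC2A1 were those of REPS1 (0.945), an endocytosis adaptor, LITAF (0.944) and INPP1 (0.942). For SLC2A3 they were ABCF2 (0.957), MESDC2 (0.948) and ATP6V0C (0.934), a subunit of the vacuolar proton pump that had r = -0.0057 over the 12 arrays undivided and a pregnancy difference of 0.14. For PDK4 they were TPRKB (0.873), PKIA (0.869), an inhibitor of protein kinase A, and TMEM68 (0.843). TPRKB had r = 0.153 with PDK4 over the 12 arrays. All were picked for these values among 6762 genes, and no test was made.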
